A study of Mus musculus with 6 samples.

Results

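The genes described here are 31 genes of cholesterol synthesis, uptake and transport, together with the genes that control them through the SREBP transcription factors. They were chosen by name for their known role, with earlier results of these data known, so the counts below are descriptions. By role, 8 were enzymes of the early mevalonate pathway and 11 were enzymes of the late sterol pathway. The others were 6 regulators and 6 genes of sterol transport, storage and efflux. All 31 were measured, among 17298 named genes on the arrays. Their log2 values lay between 7.40 and 13.88 on all 6 arrays, above the feature of random probes that serves as a background control, which lay between 6.59 and 6.81.

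RNA came from MC3T3-E1, a mouse pre-osteoblast cell line that mineralizes its matrix in osteogenic medium. The differentiated group was 3 cultures kept 15 days in medium with glycerol-2-phosphate and ascorbic acid. The doses were 50 µg/mL for the acid and 10 mM for the phosphate. The undifferentiated group was 3 cultures without that regimen. Serum, an outside source of sterol, was at 10% in both groups. The 15 days are recorded for the differentiated group only, so time in culture and differentiation cannot be told apart. Cells of both groups had received 100 nM 1,25(OH)2D3, the active hormone form of vitamin D, for 24 h, so no comparison here is with cells that lacked the hormone. Vehicle-treated cultures were not analysed here. The study's design text calls the replicates biological, without saying how the cultures were separated, so the p-values measure the spread between these arrays. MC3T3-E1 is 1 immortal line, used at passages 5 to 12. As a check of the labels, Alpl, the alkaline phosphatase of mineralizing osteoblasts, had log2 values of 12.97, 12.87 and 12.98 on differentiated arrays, against 9.38, 9.09 and 9.26 on undifferentiated arrays.

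Cholesterol is built from acetyl-CoA. The early steps make mevalonate and then the isoprenoid units that also feed protein prenylation, dolichol and ubiquinone; the late steps join these units into squalene, close the rings to lanosterol and trim it to cholesterol. The genes of both stretches share a control circuit. SREBP precursors sit in the endoplasmic reticulum bound to SCAP; when sterols are plentiful the INSIG proteins hold SCAP there, and when sterols are scarce SCAP escorts SREBP to the Golgi, where proteases release the active factor. SREBP2 acts mostly on cholesterol genes and SREBP1c mostly on fatty acid genes. The late pathway also touches vitamin D, because the substrate of its last reductase, Dhcr7, is the precursor of vitamin D in skin.

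SREBPs bind sterol regulatory elements in promoters, usually with NF-Y, which binds the CCAAT box, and Sp1, which binds GC-rich boxes. A promoter window of 300 bases, from 250 before to 50 after the start, was found in the RefSeq promoter table (build GRCm38.p6) for 25 of the 31 genes. Fdps, Fdft1, Sqle, Stard4, Npc1 and Abcg1 had no entry. The windows of 6 genes are shown because 5 of them, Idi1, Lss, Msmo1, Sc5d and Insig1, belong to the genes that fell under all 18 processing alternatives, and the window of Hmgcs1 is the only member window with the sterol element searched. They are written 5′ to 3′ on the gene's strand, and capitals mark CCAAT or its reverse complement ATTGG and, in Hmgcs1, the match to TCACNCCAC or its reverse complement. The positions are chr13:119690101-119690400, plus strand, for Hmgcs1; chr13:8885356-8885655, plus strand, for Idi1; chr10:76531355-76531654, plus strand, for Lss; chr8:64733529-64733828, minus strand, for Msmo1; chr9:42264251-42264550, minus strand, for Sc5d; and chr5:28071162-28071461, plus strand, for Insig1.
Hmgcs1: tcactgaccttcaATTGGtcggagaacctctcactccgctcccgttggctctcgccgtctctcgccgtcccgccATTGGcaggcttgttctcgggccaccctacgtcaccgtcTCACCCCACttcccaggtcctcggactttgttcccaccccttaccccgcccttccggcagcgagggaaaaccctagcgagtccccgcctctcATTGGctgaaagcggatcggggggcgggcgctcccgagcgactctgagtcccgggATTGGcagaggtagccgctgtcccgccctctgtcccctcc
Idi1: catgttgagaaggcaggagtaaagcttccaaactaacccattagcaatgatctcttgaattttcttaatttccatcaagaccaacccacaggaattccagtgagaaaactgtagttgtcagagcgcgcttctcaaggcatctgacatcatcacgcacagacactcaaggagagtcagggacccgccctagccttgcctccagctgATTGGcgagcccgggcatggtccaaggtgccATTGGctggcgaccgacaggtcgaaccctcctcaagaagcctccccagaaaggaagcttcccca
Lss: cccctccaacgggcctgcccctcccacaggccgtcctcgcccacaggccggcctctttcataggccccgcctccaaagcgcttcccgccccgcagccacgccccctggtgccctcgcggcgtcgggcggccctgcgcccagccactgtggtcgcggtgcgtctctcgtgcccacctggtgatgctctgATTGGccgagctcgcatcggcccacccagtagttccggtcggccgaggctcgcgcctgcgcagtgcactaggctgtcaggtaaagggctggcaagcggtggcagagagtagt
Msmo1: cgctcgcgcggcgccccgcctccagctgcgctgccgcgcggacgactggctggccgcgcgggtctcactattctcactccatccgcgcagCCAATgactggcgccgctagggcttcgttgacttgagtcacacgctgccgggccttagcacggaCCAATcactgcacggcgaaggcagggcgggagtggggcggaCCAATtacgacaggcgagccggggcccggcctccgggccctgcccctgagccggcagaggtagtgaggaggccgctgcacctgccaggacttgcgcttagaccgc
Sc5d: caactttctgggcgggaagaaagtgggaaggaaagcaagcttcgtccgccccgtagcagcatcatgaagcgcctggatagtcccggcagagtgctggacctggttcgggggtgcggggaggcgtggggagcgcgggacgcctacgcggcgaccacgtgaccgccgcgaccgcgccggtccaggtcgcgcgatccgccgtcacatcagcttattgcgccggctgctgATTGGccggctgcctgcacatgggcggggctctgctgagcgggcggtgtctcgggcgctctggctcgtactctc
Insig1: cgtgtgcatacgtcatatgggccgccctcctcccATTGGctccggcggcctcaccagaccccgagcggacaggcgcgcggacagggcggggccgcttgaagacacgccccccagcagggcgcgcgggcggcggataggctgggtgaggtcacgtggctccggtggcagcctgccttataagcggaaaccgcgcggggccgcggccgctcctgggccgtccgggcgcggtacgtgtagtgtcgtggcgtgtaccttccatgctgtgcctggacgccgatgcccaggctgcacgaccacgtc

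Both strands were searched in all windows. CCAAT was found in 22 of 25 member promoters (88.0%), among them 15 of 16 enzyme promoters, against 5887 of 13837 promoters of genes on the arrays (42.5%). Hmgcs1 had 4 such boxes, Msmo1 had 3, Idi1 had 2, and Lss, Sc5d and Insig1 had 1 each. The GC box GGGCGG was found in 23 of 25 (92.0%) against 53.9% of array genes, and the E-box CACGTG, which reads the same on both strands and was counted once, in 6 of 25 (24.0%) against 9.67%. The sterol element TCACNCCAC was found in 1 of 25 (4.0%), in Hmgcs1 at position -137 relative to the start site, against 1.47%. Matches of different motifs overlapped in 0 member windows. The CCAAT box was present in all 7 genes with a window that fell and in 15 of 18 that did not pass the test, so in these windows its presence was shared by most members of both kinds. A match is a description of the letters, not of a bound site.

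Differences are log2 values of differentiated arrays minus those of undifferentiated arrays, fitted with limma across the named genes. A gene is said to have risen or fallen where its Benjamini-Hochberg adjusted p was under 0.05. Of the 31 genes 10 fell, which is 32.3%, against 10.9% of all named genes, and 0 rose, against 8.58% of all named genes. At an unadjusted limma p under 0.05, 14 were lower and 0 higher, against 2891 lower and 3475 higher among the 17298 named genes. The difference was negative for 27 of 31 genes, against 40.6% of all named genes, and the median difference was -0.28, against 0.08 over all named genes. The largest falls were in Sc5d, Idi1, Lss and Insig1, each by more than 2-fold. The 10 genes that fell were 3 early mevalonate enzymes, 5 late sterol enzymes, 1 regulator and 1 transport gene. In bulk RNA, fewer cells that express a gene and less RNA per cell cannot be told apart.

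The arrays fall into technical groups that bear on every value here. The image identifiers carry 1 date for each group, so image date and group cannot be told apart. The array numbers of undifferentiated replicates 1 and 2 begin with 267, while undifferentiated replicate 3 and all 3 differentiated arrays have numbers that begin with 262. Undifferentiated replicate 3 therefore shares its number start with the differentiated arrays, and its values are set apart further on. Across the named genes, array pairs correlated at 0.992 to 0.996 among differentiated cultures, at 0.979 to 0.994 among undifferentiated cultures and at 0.958 to 0.978 where the pair held 1 of each kind. Median deposited intensity was 823 to 835 on differentiated arrays and 793 to 809 on undifferentiated arrays. The upper quartile (log2) was 11.46, 11.39 and 11.26 on undifferentiated replicates 1, 2 and 3, and 11.26 to 11.30 on differentiated arrays. The control feature lay at 6.59, 6.61 and 6.77 on the same undifferentiated arrays, and at 6.71 to 6.81 on differentiated arrays. On both measures undifferentiated replicate 3 lay inside the differentiated range, so the spread of deposited values followed the array number start.

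**Figure D1:**
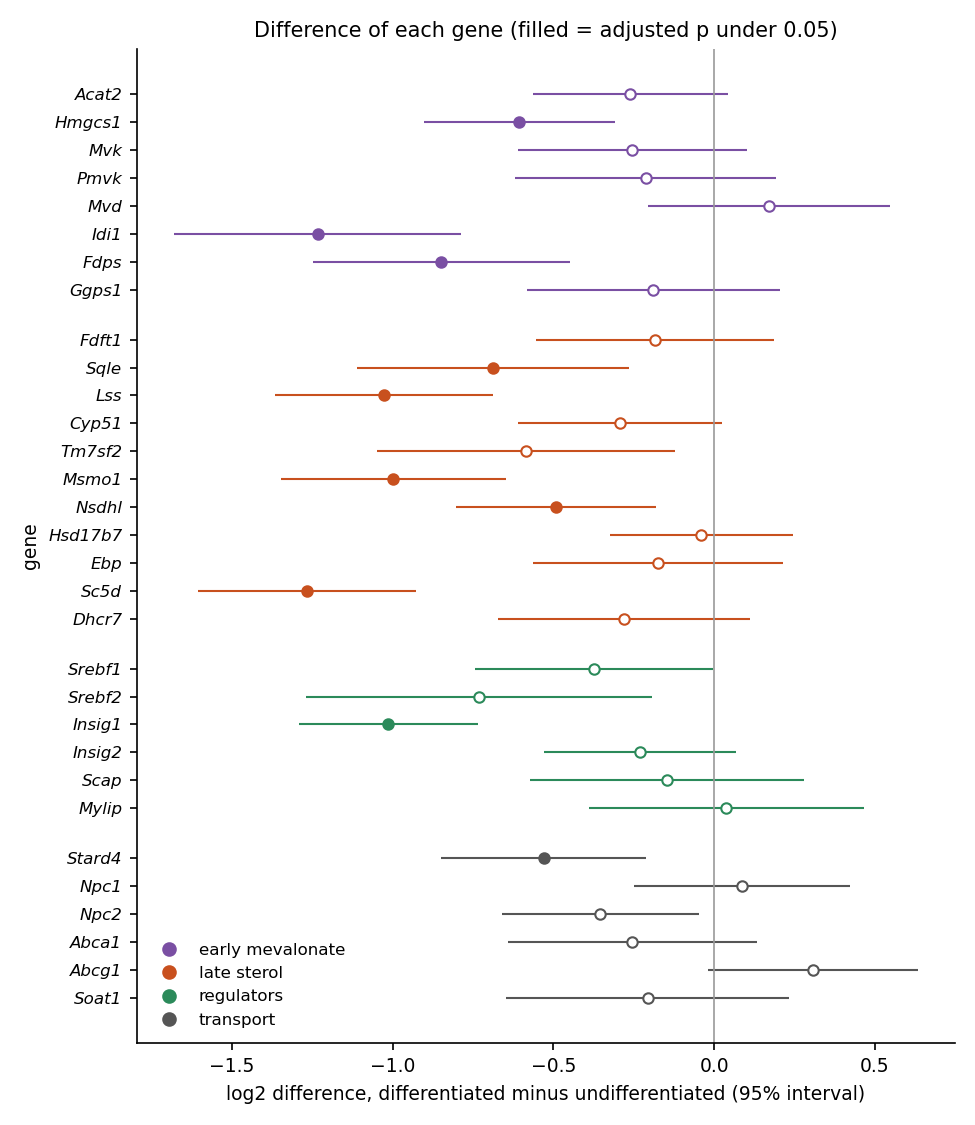
Log2 difference (differentiated minus undifferentiated) of each of the 31 genes, by role, with 95% confidence intervals from limma; filled points passed an adjusted p under 0.05 and open points did not. The 10 filled points all lie left of 0, and 27 of the 31 points are negative.

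In the early mevalonate pathway 3 of 8 enzymes fell, 7 of 8 differences were negative and the median difference was -0.26. Of all named genes 10.9% fell and 40.6% had a negative difference, with a median of 0.08. Hmgcs1 is the HMG-CoA synthase that commits carbon to the pathway. Its log2 values were 12.47, 12.58 and 12.79 on differentiated arrays, against 13.33, 13.15 and 13.18 on undifferentiated arrays. The groups did not overlap, as held for 17.4% of all named genes in this direction. Hmgcs1 fell by 0.61 ± 0.13 on the log2 scale (SE, n = 3 arrays each), or 1.52-fold, with a limma adjusted p of 0.0115. Without differentiated replicate 1, the lowest array, its adjusted p was 0.0646.

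Idi1 encodes the isomerase that balances the isoprenoid building blocks, isopentenyl and dimethylallyl diphosphate. Its log2 values were 10.92, 11.50 and 11.74 on differentiated arrays, against 12.61, 12.43 and 12.81 on undifferentiated arrays. Every differentiated array lay below every undifferentiated array, although the differentiated arrays spread more (SD 0.42) than the undifferentiated ones (SD 0.19). Idi1 fell by 1.23 ± 0.20 on the log2 scale, 2.35-fold, with a limma adjusted p of 0.00239.

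Fdps makes farnesyl diphosphate, the branch point between sterols and prenylated proteins. Its log2 values were 10.04, 10.05 and 10.44 on differentiated arrays, against 11.31, 11.08 and 10.69 on undifferentiated arrays. The groups were apart, with undifferentiated replicate 3 nearest to the differentiated arrays. Fdps fell by 0.85 ± 0.18, 1.80-fold, with a limma adjusted p of 0.0096. That p was 0.0637 without differentiated replicate 1 and 0.0527 without undifferentiated replicate 2.

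The other 5 early enzymes did not pass. Acat2, the cytosolic thiolase that makes acetoacetyl-CoA, differed by -0.26 (95% interval -0.56 to 0.04). Ggps1, which lengthens farnesyl to geranylgeranyl diphosphate for prenylation, differed by -0.19 (-0.58 to 0.20). The 3 enzymes that turn mevalonate into isopentenyl diphosphate gave differences of -0.25 for the kinase Mvk (-0.61 to 0.10), -0.21 for the kinase Pmvk (-0.62 to 0.19) and 0.17 for the decarboxylase Mvd (-0.21 to 0.55). For these 3 consecutive enzymes undifferentiated replicate 3 was the lowest of all 6 arrays, at 11.29 for Mvk, 9.92 for Pmvk and 11.54 for Mvd.

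In the late sterol pathway 5 of 11 enzymes fell, all 11 differences were negative and the median difference was -0.49. Of all named genes 10.9% fell and 40.6% had a negative difference, with a median of 0.08. Sqle, the squalene epoxidase and a rate-limiting step of the late pathway, had log2 values of 11.77, 12.39 and 12.47 on differentiated arrays, against 13.05, 12.68 and 12.97 on undifferentiated arrays. The groups did not overlap, and differentiated replicate 1 was the lowest array by a wide margin. Sqle fell by 0.69 ± 0.19, 1.61-fold, with a limma adjusted p of 0.0307. That p was above 0.05 without undifferentiated replicate 1 (0.0809), undifferentiated replicate 2 (0.0576), differentiated replicate 1 (0.12) or differentiated replicate 2 (0.0531), and after quantile normalization (0.0532) or cyclic loess (0.0581).

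Lss encodes lanosterol synthase, which closes the rings of the sterol skeleton. Its log2 values were 10.07, 9.93 and 10.24 on differentiated arrays, against 11.31, 11.16 and 10.85 on undifferentiated arrays. The nearest arrays of the groups were still well apart. Lss fell by 1.03 ± 0.15, 2.04-fold, with a limma adjusted p of 0.0014.

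Msmo1 and Nsdhl act together in removing methyl groups from the sterol skeleton. Msmo1, the methylsterol monooxygenase, had log2 values of 11.09, 11.42 and 11.62 on differentiated arrays, against 12.43, 12.49 and 12.21 on undifferentiated arrays, and fell by 1.00 ± 0.16, 2.00-fold, with a limma adjusted p of 0.00198. Nsdhl, the dehydrogenase that follows it, had log2 values of 8.07, 7.98 and 8.01 on differentiated arrays, against 8.59, 8.27 and 8.67 on undifferentiated arrays, and fell by 0.49 ± 0.14, 1.41-fold, with a limma adjusted p of 0.034. Neither gene's groups overlapped. The Nsdhl call was lost without undifferentiated replicate 1 (0.0831), differentiated replicate 1 (0.0992), differentiated replicate 2 (0.106) or differentiated replicate 3 (0.113).

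Sc5d, the sterol desaturase that makes the substrate of Dhcr7, showed the largest fall of the 31 genes over the 6 arrays. Its log2 values were 9.44, 9.80 and 9.96 on differentiated arrays, against 11.03, 10.90 and 11.06 on undifferentiated arrays. The 3 undifferentiated arrays agreed closely (SD 0.08) and lay far above the differentiated ones. Sc5d fell by 1.27 ± 0.15, 2.41-fold, with a limma adjusted p of 0.000361. Dhcr7 itself, the last reductase, had log2 values of 9.71, 10.30 and 10.11 on differentiated arrays, against 10.58, 10.17 and 10.21 on undifferentiated arrays. Its groups overlapped and it did not pass, with a difference of -0.28 (95% interval -0.67 to 0.11).

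The other 5 late enzymes did not pass either. Cyp51, the lanosterol demethylase, had groups that did not overlap, with a difference of -0.29 (-0.61 to 0.02). Tm7sf2, a sterol reductase, differed by -0.58 (-1.05 to -0.12) with a limma adjusted p of 0.0731, and its undifferentiated arrays were widely spread at 9.77, 9.29 and 8.87. Fdft1, the squalene synthase, differed by -0.18 (-0.55 to 0.19), the isomerase Ebp by -0.18 (-0.57 to 0.21) and the reductase Hsd17b7 by -0.04 (-0.32 to 0.24). The intervals of Fdft1 and Ebp leave room for a fall of the size seen in Nsdhl, so for these genes the arrays do not separate a modest fall from none.

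**Figure D2:**
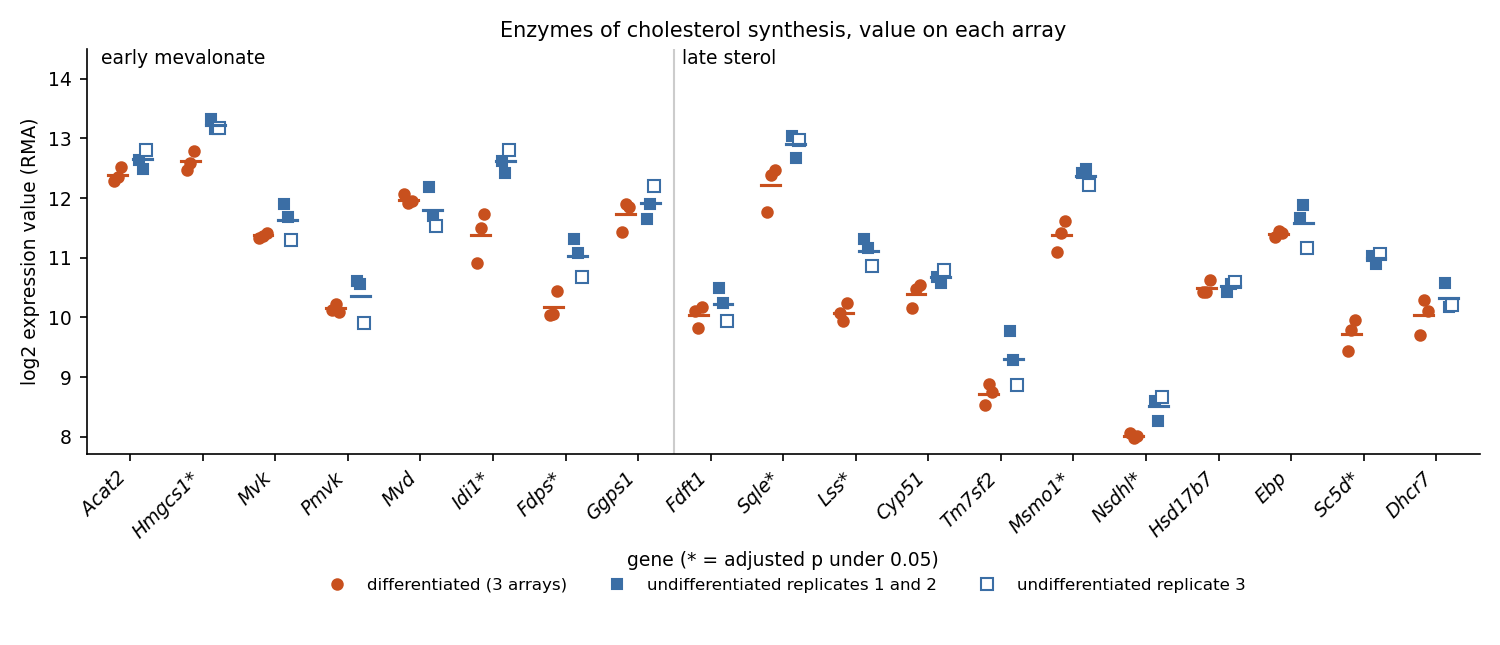
Log2 expression value of the 19 early mevalonate and late sterol enzymes on each array, differentiated arrays to the left of undifferentiated arrays for each gene, with undifferentiated replicate 3 marked apart. For Hmgcs1, Idi1, Fdps, Sqle, Lss, Cyp51, Msmo1, Nsdhl and Sc5d all 3 differentiated arrays lie below all 3 undifferentiated arrays. That layout held for 17.4% of all named genes. For Mvk, Pmvk and Mvd undifferentiated replicate 3 is the lowest array.

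Among the 19 enzymes of both stretches, 8 fell and 0 rose, against 10.9% and 8.58% of all named genes. The difference was negative for 18 enzymes, against 40.6% of all named genes, and the median over the enzymes was -0.29. Differentiated replicate 1 was the lowest differentiated array for 13 of the 19 enzymes, against 37.2% of all named genes. Without that array 5 of the 31 genes fell (Idi1, Lss, Msmo1, Sc5d and Insig1), in place of 10, and the share of all named genes that fell was 5.05% in place of 10.9%, so the count went down with the background. Of 12 measured cell cycle genes 4 fell and 0 rose, with a median difference of -0.09. Mki67 was not measured. The difference was negative for 9 of them and positive for 3 (Cdk1 by 0.38, Pcna by 0.35 and Mcm5 by 0.17), and these 3 did not pass. Their summed intensity over the 12 genes, with Pcna the brightest, was 33561 to 47223 on differentiated arrays and 36727 to 40118 on undifferentiated arrays. Ccna2, a cyclin of DNA replication and mitosis, had log2 values of 8.51, 9.50 and 9.65 on differentiated arrays, against 10.63, 10.76 and 10.33 on undifferentiated arrays, and fell by 1.36. Differentiated replicate 1 was the lowest array for it and for the mitotic genes Ccnb1, Bub1 and Nusap1, which fell by 1.28, 1.06 and 1.07; the Nusap1 call was lost without that array (limma adjusted p 0.0606). The part of the cell cycle difference in the enzyme differences was not tested.

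Among the regulators 1 of 6 fell, near the 10.9% of all named genes, and the median difference was -0.30. Insig1, the SCAP anchor that is itself an SREBP target and rises when sterols are scarce, had log2 values of 10.40, 10.37 and 10.57 on differentiated arrays, against 11.53, 11.42 and 11.42 on undifferentiated arrays. The arrays within each group lay close together (SD 0.11 and SD 0.06) and the groups were far apart. Insig1 fell by 1.01 ± 0.13, 2.02-fold, with a limma adjusted p of 0.000432. Insig2, the second anchor, had log2 values of 13.46, 13.79 and 13.53 on differentiated arrays, against 13.74, 13.84 and 13.88 on undifferentiated arrays. Its groups overlapped and its difference was -0.23 (95% interval -0.53 to 0.07); a second feature of the gene differed by 0.06.

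Srebf2, which encodes the SREBP for cholesterol genes, had log2 values of 10.20, 10.35 and 10.39 on differentiated arrays, against 11.55, 11.19 and 10.40 on undifferentiated arrays. Undifferentiated replicates 1 and 2 stood high, while undifferentiated replicate 3 was level with the highest differentiated array. The difference was -0.73 (95% interval -1.27 to -0.19) with a limma adjusted p of 0.0576, and without undifferentiated replicate 3 it was -1.06 with a limma adjusted p of 2.84e-05. The mean of the differentiated arrays was only 0.08 lower than undifferentiated replicate 3 on the log2 scale. Whether Srebf2 fell therefore rests on undifferentiated replicates 1 and 2.

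Srebf1, the SREBP gene with a larger part in fatty acid synthesis, showed a like layout. It had 10.01, 9.84 and 9.90 on differentiated arrays, against 10.45, 10.51 and 9.92 on undifferentiated arrays, and differed by -0.37 (95% interval -0.74 to -0.0025) with a limma adjusted p of 0.134. Scap, the escort, had 11.15, 11.08 and 10.92 on differentiated arrays, against 11.53, 11.33 and 10.74 on undifferentiated arrays, and differed by -0.15 (-0.57 to 0.28). In both genes undifferentiated replicate 3 lay within or below the differentiated arrays. Mylip, the ubiquitin ligase that sends lipoprotein receptors to degradation, differed by 0.04 (-0.39 to 0.46) with overlapping groups.

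**Figure D3:**
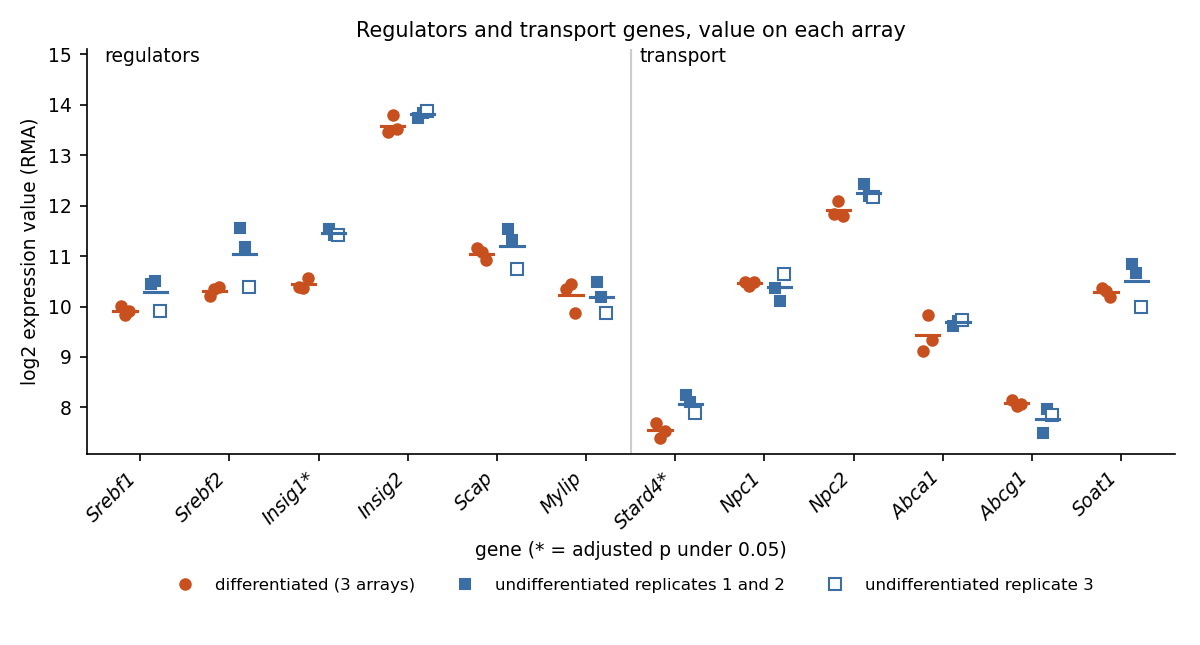
Log2 expression value of the 6 regulators and 6 transport genes on each array, differentiated arrays to the left of undifferentiated arrays for each gene, with undifferentiated replicate 3 marked apart. All differentiated arrays lie below all undifferentiated arrays for Insig1, Srebf2, Stard4 and Npc2, as for 17.4% of all named genes. They lie above them for Abcg1, as for 22.7%. The gap is wide for Insig1, while the nearest arrays for Srebf2 are level (10.39 and 10.40). For Srebf2, Srebf1, Scap and Soat1 undifferentiated replicate 3 lies 0.56 to 0.97 below the mean of undifferentiated replicates 1 and 2.

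Of the 6 genes of sterol transport, storage and efflux 1 fell, likewise near the 10.9% of all named genes, and the median difference was -0.23. Stard4, a soluble carrier that moves sterol between membranes, had log2 values of 7.70, 7.40 and 7.54 on differentiated arrays, against 8.24, 8.11 and 7.88 on undifferentiated arrays. Its groups did not overlap. It fell by 0.53 ± 0.14, 1.44-fold, with a limma adjusted p of 0.0277, and the call was lost when any array other than undifferentiated replicate 3 was left out (limma adjusted p 0.0569 to 0.108).

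Npc2 and Npc1 hand cholesterol out of lysosomes. Npc2 had groups that did not overlap, at 11.84, 12.09 and 11.79 on differentiated arrays, against 12.42, 12.19 and 12.17 on undifferentiated arrays, and differed by -0.35 (95% interval -0.66 to -0.05) with a limma adjusted p of 0.0946. Npc1 differed by 0.09 (-0.25 to 0.42). The efflux pumps Abca1 and Abcg1 differed by -0.25 (-0.64 to 0.13) and 0.31 (-0.02 to 0.63). Abcg1 was the only member whose differentiated arrays all lay above its undifferentiated arrays, a layout that 22.7% of all named genes had. Soat1, which esterifies cholesterol for storage, differed by -0.21 (-0.65 to 0.23).

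Undifferentiated replicate 3 was set apart because it shares its array number start with the differentiated arrays. It lay below both other undifferentiated arrays for 16 of the 31 genes, above both for 10 and between them for 5. Among the 17298 named genes it lay below both for 6723 and above both for 7630. It lay below the mean of the other undifferentiated arrays for 19 members, against 46.8% of all named genes. The median over members of undifferentiated replicate 3 minus the mean of undifferentiated replicates 1 and 2 was -0.17, and over the 6 regulators it was -0.51. All 3 differentiated arrays lay below undifferentiated replicate 3 for 17 members, against 28.7% of all named genes, and these include all 10 genes that fell. All 3 differentiated arrays lay above it for 8 members (Mvk, Pmvk, Mvd, Ebp, Scap, Mylip, Abcg1 and Soat1), against 42.5% of all named genes, and none of these passed the test.

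The differentiated mean lay below undifferentiated replicate 3 for 21 of the 31 genes, against 41.2% of all named genes. The median of the differentiated mean minus undifferentiated replicate 3 was -0.43 over the 19 enzymes and -0.04 over the 6 regulators, both without a test. For 5 genes that fell the log2 difference between the differentiated mean and undifferentiated replicate 3 was -1.43 for Idi1, -1.32 for Sc5d, -0.98 for Insig1, -0.83 for Msmo1 and -0.77 for Lss.

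Without undifferentiated replicate 3, 19 of the 31 genes fell, against 20.2% of all named genes, and 0 rose, against 24.8% of all named genes. The 9 genes added were Mvk, Pmvk, Tm7sf2, Ebp, Srebf1, Srebf2, Scap, Npc2 and Soat1. With the start of the array number as a covariate, undifferentiated replicate 3 is the only undifferentiated array set against the differentiated arrays, and 8 of the 31 passed as lower, against 8.99% of all named genes. That fit compares 3 arrays with 1, and the lone array is assumed to vary like the others. These 8 were Hmgcs1, Idi1, Sqle, Lss, Msmo1, Nsdhl, Sc5d and Insig1. Fdps, at -0.51, and Stard4, at -0.33, no longer passed. Idi1, Lss, Msmo1, Sc5d and Insig1 passed in all 18 alternatives, that fit among them.

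**Figure D4:**
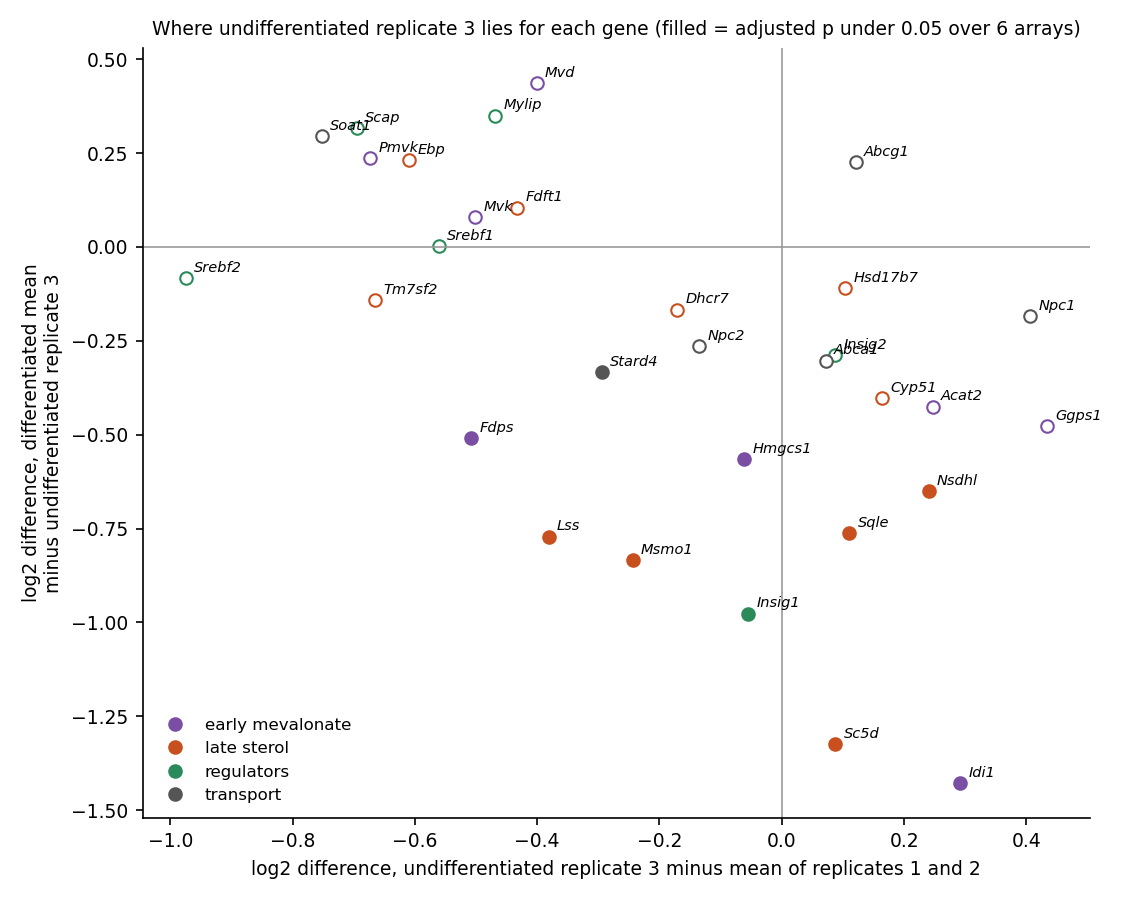
For each of the 31 genes, the vertical axis gives the differentiated mean minus undifferentiated replicate 3, and the horizontal axis gives undifferentiated replicate 3 minus the mean of undifferentiated replicates 1 and 2 (log2, filled points fell over the 6 arrays). All 10 filled points lie below 0 on the vertical axis, while Srebf2 lies at -0.97 on the horizontal and -0.08 on the vertical axis.

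Counts in the neighbouring lists are read against 10.9% of all named genes lower and 8.58% higher. Among 13 genes of the fatty acid arm of SREBP targets 2 fell and 1 rose, with a median difference of -0.11, whereas 1 fell and 2 rose after quantile normalization and after cyclic loess. Elovl6, an elongase of saturated fatty acids, had 12.43, 12.72 and 12.51 on differentiated arrays, against 13.33, 13.30 and 13.37 on undifferentiated arrays, and fell by 0.78 (limma adjusted p 0.00249). Scd1, a fatty acid desaturase, fell by 0.67 (limma adjusted p 0.0364), but passed in only 12 of 18 alternatives. Its call was lost after quantile normalization or cyclic loess and without undifferentiated replicate 2 or any differentiated replicate (limma adjusted p up to 0.164). Acss2, which makes acetyl-CoA from acetate, went the other way, at 12.13, 11.90 and 11.87 on differentiated arrays, against 11.36, 10.91 and 11.02 on undifferentiated arrays, and rose by 0.88 (limma adjusted p 0.00328). Fasn, the fatty acid synthase, differed by -0.19, the citrate lyase Acly by -0.03 and the desaturase Scd2 by 0.09, and none of these passed.

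Of 10 genes for SREBP processing and INSIG turnover 1 fell and 0 rose, with a median difference of -0.29; a share of 10.0% is that of all named genes (10.9% lower) and says nothing about the group. The gene that fell was Rnf139, a sterol-sensing ubiquitin ligase of the endoplasmic reticulum, at 9.91, 10.08 and 9.78 on differentiated arrays, against 10.70, 10.72 and 10.74 on undifferentiated arrays. It fell by 0.80. The SREBP proteases Mbtps1 and Mbtps2 differed by 0.16 and -0.29 and did not pass.

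Of 12 genes of the isoprenoid branches 1 fell and 1 rose, with a median difference of 0.02. Pggt1b, a subunit of a prenyltransferase, fell by 0.83 and Dhdds, which makes dolichol precursors, rose by 0.48. Dhdds passed in 10 of 18 alternatives; its call was lost with equal array medians, cyclic loess, the replicate block or the variance trend, and without undifferentiated replicate 2 or any differentiated replicate (limma adjusted p up to 0.13). Among 18 measured genes of the liver X receptors, oxysterols and sterol carriers, 4 fell and 3 rose, with a median difference of 0.18. Among those that rose were Gramd1b, a carrier of sterol from the plasma membrane, by 0.91 and Ch25h, which makes the oxysterol that acts on INSIG, by 0.86. Among those that fell were Osbpl8, an oxysterol-binding family member, by 0.74 and Cav1, the caveolar coat protein, by 0.73. The calls of Gramd1b and Cav1 were lost without undifferentiated replicate 2 or differentiated replicate 1 (limma adjusted p up to 0.0843 and 0.0702), and that of Ch25h without differentiated replicate 1 (0.0501). The liver X receptor genes Nr1h2 and Nr1h3 differed by -0.06 and 0.51 and did not pass.

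Markers of osteoblasts and of other cell types were measured in the same comparison, where 8.58% of all named genes rose and 10.9% fell. Of 10 osteoblast markers 5 rose (Alpl by 3.70, Dmp1 by 2.21, Pth1r by 1.32, Bglap by 1.10 and Sp7 by 0.70) and 0 fell. Runx2, Ibsp, Col1a1, Col1a2 and Spp1 differed by 0.09, 0.11, 0.07, 0.03 and -0.32 and did not pass. The summed intensity of the osteoblast list was 161292 to 164463 on differentiated arrays and 146915 to 158923 on undifferentiated arrays. Its brightest genes, Col1a1, Col1a2 and Spp1, carry most of that sum, so it does not describe the markers that rose. Of 10 adipocyte markers 3 rose (Cebpa by 1.42, Pparg by 0.72 and Cfd by 0.46) and 0 fell. The summed intensity of the adipocyte list was 9701 to 10319 on differentiated arrays and 5383 to 6045 on undifferentiated arrays. Cebpa, its brightest marker, had a mean log2 value of 12.57 on differentiated and 11.15 on undifferentiated arrays. That 1 gene carries most of the gap between the sums, so the sums do not describe the adipocyte markers as a group. Fabp4 differed by -0.54 (limma adjusted p 0.0584) and Adipoq by 0.17, and neither passed. Cebpa passed in all 18 alternatives, Pparg in 11 and Cfd in 9. The list gave 2 higher and 1 lower after quantile normalization or with equal array medians, 1 higher and 1 lower after cyclic loess, and 1 to 5 higher with each array left out. Of 7 measured macrophage markers 2 rose and 1 fell (summed intensity 3056 to 3442 on differentiated and 2267 to 2857 on undifferentiated arrays), of 6 smooth muscle markers 1 rose and 1 fell (4326 to 4461 on differentiated and 3694 to 4564 on undifferentiated arrays), and of 7 endothelial markers 2 rose and 0 fell (3556 to 3941 on differentiated and 2395 to 3388 on undifferentiated arrays). The endothelial markers that rose were Tek by 1.06, which passed in all 17 alternatives that measured it, and Pecam1 by 0.45, which passed in 4 of 18, while Cdh5 was at or below the control feature on all arrays. The part of other cell types in the sterol gene differences was not tested.

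**Figure D5:**
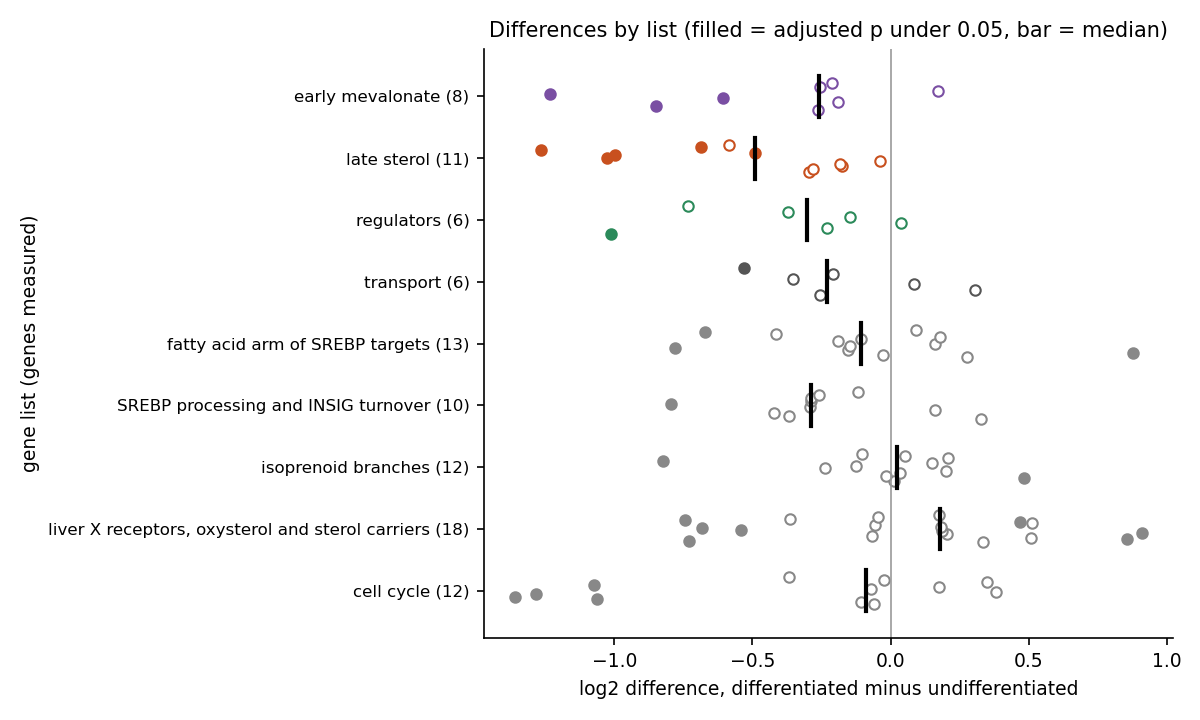
Log2 difference (differentiated minus undifferentiated) of each measured gene in the 4 sterol groups and in 5 neighbouring lists, filled where it passed an adjusted p under 0.05, with a bar at each list's median. The late sterol enzymes have the lowest median of these lists, -0.49, with all 11 genes below 0.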

How the data were processed

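6 single-colour (Cy3) NimbleGen arrays were read, 3 per group, grouped by sample title. The authors deposited linear intensity values for each feature. Per the submitters' processing notes these came from RMA, a method of background correction, normalization between arrays and probe summary; no version or build was stated in the labels or headers. Of 42586 features, 17849 were named through RefSeq transcript identifiers (GRCm38.p6 table, names only), giving 17298 genes; 24737 stayed unnamed. The brightest feature stood for a gene, and the control feature of 6131 random probes was left out. Log2 of the deposited intensity was fitted with limma 3.58.1 (lmFit and eBayes, R 4.3.3), with a 2-sided test and p-values adjusted by Benjamini-Hochberg across the named genes. The number of arrays limits the precision, and only the spread between arrays enters the tests. Scripts were tested on simulated data. The text names all 31 members, up to 4 genes with the largest differences that passed in each neighbouring list, and some further genes set by role. Cdh5, Cdk1, Pcna, Mcm5, Sp7, Runx2, Ibsp, Col1a1, Col1a2 and Spp1 were named after their values were seen. The members and lists were chosen with earlier results of these data known, so their counts are descriptions and no list was tested as a set. The alternatives were other normalizations, filters, feature rules, blocks, weights and leaving out each array.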

Additional observations from a re-analysis of the deposited data

How the results depend on the processing

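The number of the 31 genes that fell was 10, against 10.9% of all named genes, and 19 with array weights, against 20.8%. It was 9 to 11 under quantile normalization, equal array medians, cyclic loess, both filters on dim genes, the mean of all features, all features tested, the variance trend and the deposited series table, and 8 with array number start as a covariate; 0 rose under any of the 18 alternatives. Leaving out each array in turn gave 5 to 19, against 5.05% to 20.2% of all named genes. Both were lowest without differentiated replicate 1 and highest without undifferentiated replicate 3. The array weights were lowest for undifferentiated replicate 3 (0.24) and highest for undifferentiated replicate 2 (2.76). The 9 genes added with array weights were the same as those added without undifferentiated replicate 3, so these alternatives overlap. Same-numbered arrays had correlated deviations of 0.018, 0.133 and 0.066, against -0.106 to 0.044 for differently numbered arrays. With 3 arrays per group these values cannot settle whether the replicate numbers pair the arrays. With the number as a replicate block 11 genes fell, Srebf2 (limma adjusted p 0.046) being added. No gene that fell changed sign. Of genes that did not pass, Hsd17b7 became 0.00536 after quantile normalization, and Mylip became -0.0141 with equal array medians and -0.0465 with array weights. With array number start as a covariate, Mvk became 0.0801, Pmvk 0.24, Fdft1 0.10, Ebp 0.23, Srebf1 0.0013, Scap 0.32, Npc1 -0.18, Soat1 0.29, Fasn 0.29, Acly 0.0877 and Nr1h2 0.51. Quantile normalization gave 0.0693 for Acly and 0.0271 for Nr1h2, and cyclic loess gave 0.0747 for Acly and 0.0497 for Nr1h2. With each array left out, differences spanned -0.12 to 0.21 for Mylip, -0.38 to 0.0195 for Scap, -0.0457 to 0.22 for Npc1, -0.096 to 0.0559 for Acly and -0.34 to 0.12 for Nr1h2. The cause of these changes was not tested. Image date as a block could not be fitted, because each group has its own. With 3 arrays per group, the largest difference among the 31 genes that did not pass was -0.73 (Srebf2) and the smallest that passed was -0.49 (Nsdhl).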
